A study of Mus musculus with 8 samples.

Results

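The genes described here are Myc and 39 genes whose products make ribosomes: subunits and factors of RNA polymerase I, nucleolar proteins, proteins of the small nucleolar ribonucleoproteins (snoRNPs) and assembly factors of the small and large ribosomal subunits. They were chosen by name. All 40 had probes on the array, 79 in all, and 39 could be tested among 21537 genes. Utp18, a factor of small-subunit assembly, was the exception: 1 of its 2 probes was at background on all 8 arrays and the other was well above background on 1 of the 8. The other 39 genes were well above background on all 8 arrays.

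The samples were CD4+ T cells of C57BL/6 mice. All hosts, controls included, had been given CD4+ T cells carrying a transgenic receptor for ovalbumin (OVA) and dendritic cells loaded with OVA peptide, and CD4+ T cells were taken on day 4. The isolates therefore hold host and transferred cells together. There were 4 groups of 2 arrays: tumour-bearing hosts given anti-IL-6R, an antibody against the interleukin-6 receptor (replicates 7 and 8); tumour-free hosts given anti-IL-6R (replicates 5 and 6); tumour-bearing hosts given a control antibody (replicates 3 and 4); and tumour-free hosts given the control antibody (replicates 1 and 2). Tumour-bearing hosts carried MCA205-OVA, a mouse fibrosarcoma that expresses OVA. The series asks which transcripts in CD4+ T cells differ with the tumour and, in tumour-bearing hosts, with blockade of the interleukin-6 receptor. Each condition came from 2 independent experiments, and the labels do not say which arrays share an experiment.

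Ribosome production starts in the nucleolus, where RNA polymerase I makes one long precursor of the ribosomal RNAs. SnoRNPs modify that precursor, and assembly factors cut and fold it into the small and large subunits. Myc, a transcription factor that T cells induce on activation, is known to raise the transcription of many of these genes, binding with its partner Max to E-boxes such as CACGTG, and ribosome production usually rises as a T cell starts to grow and divide.

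The 8 arrays had 53.1% to 59.8% of their probes well above background and no saturated spot. Cd3e and Cd4 were well above background on all 8 arrays, and so were Cd8a and the erythroid gene Gata1, while the neutrophil gene Ltf was so on 7. All arrays were on 1 slide. Control-antibody samples filled its first column and anti-IL-6R samples its second, with tumour-free and tumour-bearing samples in separate positions, so position on the slide and group cannot be told apart. With 2 arrays a group, the number of arrays limits the precision, and p-values cover only the spread between these samples, which may be technical in part.

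Values are log2 signals minus the 75th percentile of the array, for the brightest probe of each gene. They can be compared between arrays for a gene but not between genes. The probes behind the results on Myc and Nop14 are shown because the 2 Myc probes read different stretches of the same transcript and Nop14 has a single probe. Positions are those of the array's design (mm9). The brightest Myc probe lies at chr15:61821417-61821476 on the plus strand and the other at chr15:61820925-61820984 on the plus strand. The Nop14 probe is a junction-spanning 60-mer at chr5:34986699-34987391 on the minus strand.
Myc, brightest probe: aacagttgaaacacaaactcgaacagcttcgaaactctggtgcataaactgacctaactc
Myc, other probe: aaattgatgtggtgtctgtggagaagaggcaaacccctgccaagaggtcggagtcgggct
Nop14: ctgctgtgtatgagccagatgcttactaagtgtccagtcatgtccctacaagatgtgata

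The promoters of the genes were searched for the E-box CACGTG, which reads the same on both strands, because it is the textbook site for Myc. In the RefSeq promoter table (GRCm38.p6), 35 of the 40 genes had an entry under their symbol. Of these, 3 (8.57%) held the motif in the 250 bases before their start, against 6.86% of 27025 genes. They were Nop2, an rRNA methyltransferase of the large subunit, Rrn3, the initiation factor of RNA polymerase I, and Utp18. The 120 bases before the start of each are given on the gene's own strand, with the motif in capitals: Nop2 at chr6:125131763-125131882 (plus), Rrn3 at chr16:13780579-13780698 (plus) and Utp18 at chr11:93885767-93885886 (minus).
Nop2: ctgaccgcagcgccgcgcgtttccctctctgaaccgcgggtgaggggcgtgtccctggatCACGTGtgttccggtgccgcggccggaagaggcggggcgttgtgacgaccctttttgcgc
Rrn3: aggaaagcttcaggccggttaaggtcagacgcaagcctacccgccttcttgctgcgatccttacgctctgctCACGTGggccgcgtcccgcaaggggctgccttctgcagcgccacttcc
Utp18: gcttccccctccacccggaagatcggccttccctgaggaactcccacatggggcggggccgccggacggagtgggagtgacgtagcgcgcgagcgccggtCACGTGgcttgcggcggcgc
The match is a description of these letters only. The change in tumour-bearing against tumour-free hosts under control antibody was -0.03 (log2) for Nop2 and -0.07 for Rrn3, and neither passed the test.

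Myc varied most over the 8 arrays. It had log2 signals of 1.72 and 1.80 in tumour-bearing hosts with anti-IL-6R, 1.79 and 1.99 in tumour-free hosts with anti-IL-6R, 1.37 and 1.70 in tumour-bearing hosts with control antibody, and 1.95 and 1.74 in tumour-free hosts with control antibody. Both tumour-bearing arrays under control antibody were below both tumour-free ones and replicate 3 was the lowest of the 8. The change was -0.31 ± 0.132 (log2, SE, n = 2 each, limma), with a 95% interval of -0.61 to -0.01 and an adjusted p of 0.194, so it did not pass the test. In tumour-bearing hosts the change with anti-IL-6R was 0.22 ± 0.132 (adjusted p = 0.294). In tumour-free hosts it was 0.04 ± 0.132 (adjusted p = 0.935). The less bright Myc probe gave values of the same sign in the first pair of comparisons: -0.48 ± 0.165 in tumour-bearing against tumour-free hosts and 0.42 ± 0.165 with anti-IL-6R in tumour-bearing hosts, with p-values adjusted over all probes of 0.130 and 0.150. Its sign was opposite with anti-IL-6R in tumour-free hosts, at -0.13 ± 0.165. Under anti-IL-6R, tumour-bearing against tumour-free hosts, it gave 0.068 ± 0.165, where the brightest probe gave -0.13 ± 0.132.

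None of the 4 genes of RNA polymerase I transcription passed the test in any comparison. Polr1a and Polr1b encode the largest subunits, Polr1e an accessory subunit and Rrn3 the factor that brings the polymerase to the ribosomal DNA promoter. In tumour-bearing against tumour-free hosts under control antibody their changes ran from -0.14 (Polr1b) to 0.0013 (Polr1a), with a smallest adjusted p of 0.555. Polr1b had 0.39 and 0.31 in tumour-bearing hosts with anti-IL-6R, 0.50 and 0.64 in tumour-free hosts with anti-IL-6R, 0.08 and 0.40 in tumour-bearing hosts with control antibody, and 0.37 and 0.38 in tumour-free hosts with control antibody. Its tumour-bearing values under control antibody lay on either side of the tumour-free ones. Polr1e had the smallest range over the 8 arrays of all the genes described here, 0.17.

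The 6 nucleolar genes were Ncl and Npm1, which encode the abundant nucleolar proteins nucleolin and nucleophosmin, Nolc1, a chaperone of snoRNPs, the GTPase gene Gnl3 (nucleostemin), the helicase gene Ddx21 and Mybbp1a. None passed the test in any comparison. Under control antibody the tumour-bearing minus tumour-free change ran from -0.08 (Npm1) to 0.11 (Ncl). Ncl had 5.03 and 5.19 in tumour-bearing hosts and 5.04 and 4.96 in tumour-free hosts under control antibody, so that the groups overlapped. Of the 6, Ddx21 had the change farthest from 0 with anti-IL-6R in tumour-bearing hosts, -0.19 ± 0.074, with an adjusted p of 0.136.

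The 7 snoRNP genes fall into those of box C/D particles, which methylate ribosomal RNA (Fbl, the methyltransferase, with Nop56 and Nop58), and those of box H/ACA particles, which convert uridine to pseudouridine (Dkc1, the enzyme, with Gar1, Nhp2 and Nop10). Under control antibody, 4 had a tumour-bearing minus tumour-free change above 0 and 3 below 0, from -0.10 (Nop56) to 0.19 (Nhp2). Nhp2 had 4.81 and 5.01 in tumour-bearing hosts against 4.83 and 4.62 in tumour-free hosts, which overlapped. In tumour-bearing hosts all 7 changes with anti-IL-6R were below 0, from -0.24 ± 0.096 (Nhp2, adjusted p = 0.140) to -0.0025 (Dkc1), and 0 of the 7 passed the test. Nhp2 also had the lowest host-by-antibody interaction (the antibody effect in tumour-bearing hosts minus that in tumour-free hosts), -0.40 ± 0.135 (adjusted p = 0.132).

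The 9 tested genes of the small subunit are factors of the processome that cuts the early precursor (Nop14, Noc4l, Wdr43, Wdr75, Utp20, Heatr1 and Rrp9, a protein of the U3 snoRNP) and the later factors Bysl and Tsr1. They held the single gene that passed the test. Nop14, which in yeast forms a complex with the counterpart of Noc4l, had 0.24 and 0.12 in tumour-bearing hosts with anti-IL-6R, 0.25 and 0.31 in tumour-free hosts with anti-IL-6R, -0.10 and -0.21 in tumour-bearing hosts with control antibody, and 0.26 and 0.24 in tumour-free hosts with control antibody. The tumour-bearing arrays under control antibody were the lowest of the 8, and the groups did not overlap. Under control antibody the change in tumour-bearing against tumour-free hosts was -0.41 ± 0.095 (log2, SE, n = 2 each), with a 95% interval of -0.63 to -0.19 and an adjusted p of 0.046 (limma). With the number of arrays this small the call was marginal: the adjusted p ranged from 0.038 to 0.24 over 11 other settings and was over the threshold in 5 of them, and it was 0.060 to 0.18 without any 1 of the 8 arrays, with the change between -0.46 and -0.35 in those fits. With anti-IL-6R in tumour-bearing hosts the value of Nop14 was 0.34 ± 0.095 (adjusted p = 0.066), and the host-by-antibody interaction was 0.31 ± 0.135 (adjusted p = 0.200).

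Noc4l had values of the opposite sign. Its log2 signals were 2.45 and 2.48 in tumour-bearing hosts with anti-IL-6R, 2.62 and 2.53 in tumour-free hosts with anti-IL-6R, 2.70 and 2.78 in tumour-bearing hosts with control antibody, and 2.55 and 2.49 in tumour-free hosts with control antibody. The tumour-bearing arrays under control antibody were the highest of the 8. The change was 0.23 ± 0.074 with the tumour (adjusted p = 0.112), -0.27 ± 0.074 with anti-IL-6R in tumour-bearing hosts (adjusted p = 0.061), and -0.33 ± 0.105 for the host-by-antibody interaction (adjusted p = 0.116). None of the 3 passed the test. A second Noc4l probe gave 0.07 and -0.15 for the first pair.

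The 12 genes of the large subunit include Bop1, Pes1 and Wdr12, which form one complex (PeBoW), Rrs1 and Rrp1b, the methyltransferase genes Nop2 and Ftsj3, and Nop16, Noc2l, Nip7, Ppan and Nle1. Under control antibody the tumour-bearing minus tumour-free changes ran from -0.21 ± 0.113 (Nle1, adjusted p = 0.288) to 0.17 ± 0.116 (Rrp1b, adjusted p = 0.410). With anti-IL-6R in tumour-bearing hosts they ran from -0.30 ± 0.116 (Rrp1b, adjusted p = 0.134) to 0.13 (Nle1). Rrp1b had -0.77 and -0.77 in tumour-bearing hosts with anti-IL-6R against -0.43 and -0.50 in tumour-bearing hosts with control antibody, without overlap. Of the PeBoW genes, Wdr12 had -0.24 ± 0.092 in this comparison (adjusted p = 0.126), Pes1 -0.13 ± 0.082 (adjusted p = 0.316) and Bop1 -0.047 ± 0.088 (adjusted p = 0.758).

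**Figure D1:**
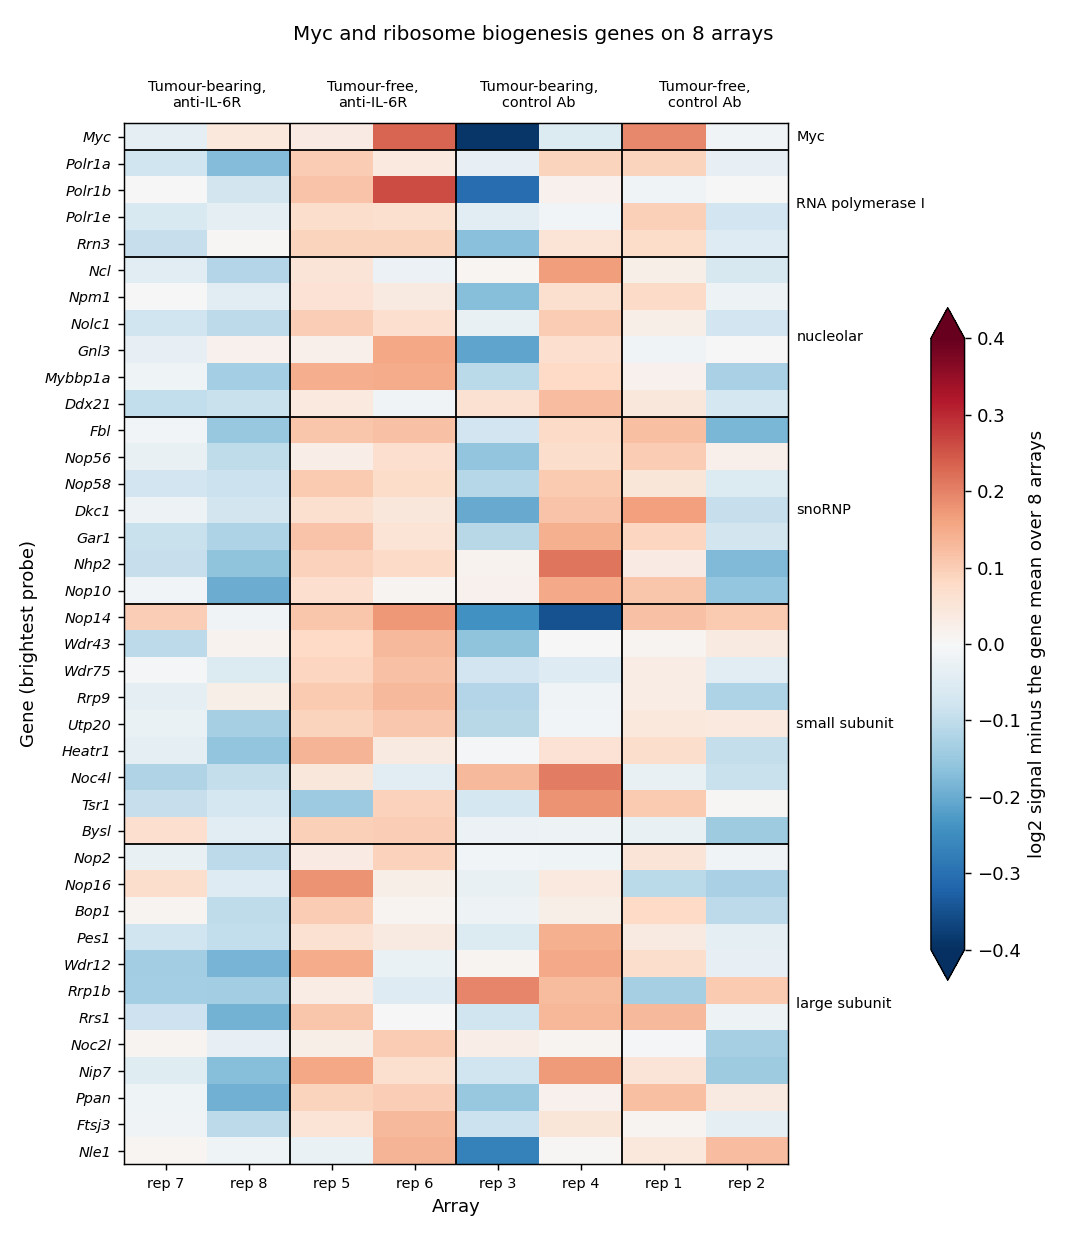
Each cell is a gene's log2 signal on an array minus its mean over the 8 arrays (colour scale, log2 units), for the 39 tested genes grouped by role and the 8 arrays grouped by host and antibody. Nop14 is lowest on both tumour-bearing arrays with control antibody (replicates 3 and 4), and columns differ within groups, most plainly between replicates 3 and 4.

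Across all 39 genes, the comparison of tumour-bearing with tumour-free hosts under control antibody gave 0 genes that rose, where 4.27% of all genes did, and 1 that fell, Nop14, where 1.98% did. At an unadjusted p under 0.05 there were 3 genes (7.69%), against 24.7% of all genes. The median change was 0.00035 (-0.060 to 0.075 without any 1 array), beside 0.026 over all genes, and 20 of the 39 changes were above 0, as were 54.8% over all genes. The 95% interval of the change lay within 1.5-fold in either direction for 37 of the 39 genes, against 58.4% of all genes, and the exceptions were Myc and Nop14. The shares over all genes, here and below, were not matched for probe brightness. The probes of the 39 genes were brighter, with array medians of 2.52 to 2.78 against 0.12 to 0.16 over all genes. The groups did not overlap, with tumour-bearing hosts higher, for 6 genes (background 30.0%), and with tumour-bearing hosts lower for 7 (background 22.9%).

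With anti-IL-6R against control antibody in tumour-bearing hosts, 0 of the 39 genes rose or fell, where 2.04% and 3.82% of all genes did. At an unadjusted p under 0.05 there were 6 (15.4%), against 29.3% of all genes. The median change was -0.047, beside -0.051 over all genes; it was 0.032 after quantile normalization and 0.0041 without replicate 4. Changes were below 0 for 27 of the 39, as for 57.8% of all genes. All 39 intervals lay within 1.5-fold, as they did for 56.2% of all genes. The anti-IL-6R arrays were below the control-antibody arrays without overlap for 14 genes (background 36.3%) and above them for 2, Nop14 and Myc (background 24.9%). This comparison and the previous one share the tumour-bearing control arrays, so opposite changes of a gene in them are not independent.

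**Figure D2:**
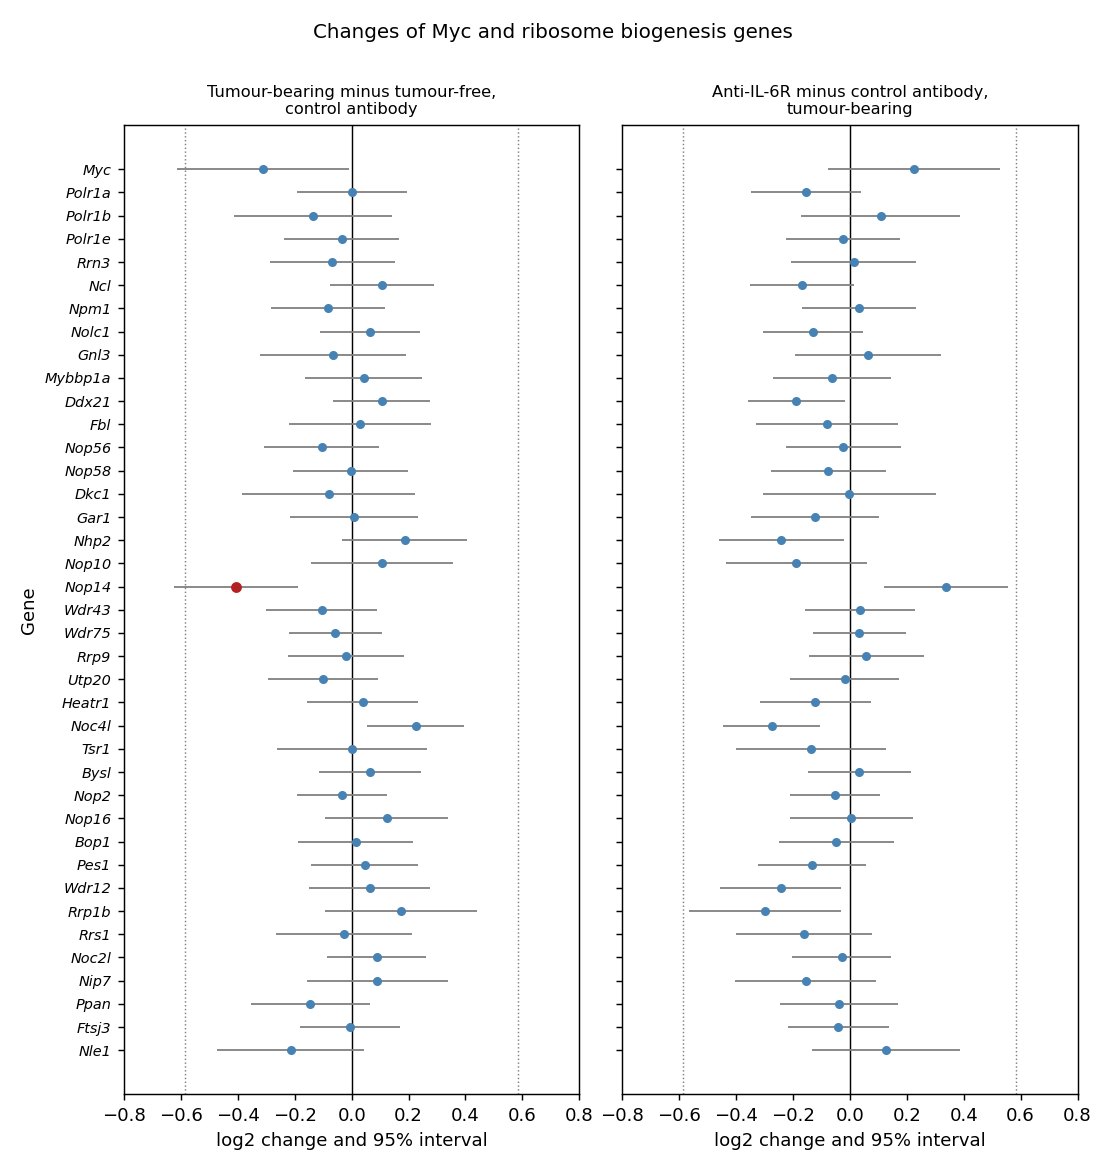
Points are log2 changes of the 39 genes, in order of role, with 95% intervals from limma, in tumour-bearing minus tumour-free hosts under control antibody (left) and in anti-IL-6R minus control antibody in tumour-bearing hosts (right); dotted lines mark 1.5-fold and the red point passed the test. Nop14 at -0.41 is the one red point, and the intervals of Myc and Nop14 alone reach past the dotted lines on the left.

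In tumour-free hosts, 0 of the 39 genes passed the test with anti-IL-6R against control antibody, where 0.0186% of all genes did, and 2 had an unadjusted p under 0.05 (5.13%, against 7.93% of all genes). These were Nop16 at 0.22 ± 0.094 and Bysl at 0.18 ± 0.079, with adjusted p-values of 0.622 and 0.626. Nop16 had 1.01 and 0.85 in tumour-free hosts with anti-IL-6R against 0.72 and 0.70 in tumour-free hosts with control antibody, without overlap. The median change was 0.062, beside 0.032 over all genes, and 35 of the 39 changes were above 0 and 4 below, while 58.4% over all genes were above 0. Single arrays moved these values: without replicate 2 the median was 0.015 with 16 of the 39 below 0, and without replicate 1 it was 0.14 with 3 below 0. After quantile normalization it was 0.022 with 14 below 0. All 39 intervals lay within 1.5-fold, against 65.2% of all genes. The anti-IL-6R arrays were higher without overlap for 16 genes (background 24.9%) and lower for 0 (background 15.4%).

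Under anti-IL-6R, the brightest probes of all 39 genes had a lower mean in tumour-bearing than in tumour-free hosts. The changes ran from -0.22 (Wdr12) to -0.055 (Tsr1). None of these passed the test, where 0.306% of all genes did, and the smallest adjusted p was 0.538. At an unadjusted p under 0.05 there were 4 (10.3%), against 7.97% of all genes, and all 39 intervals lay within 1.5-fold, against 65.6% of all genes. Wdr12, which had 2.07 and 2.02 in tumour-bearing hosts against 2.36 and 2.18 in tumour-free hosts, had a difference of -0.22 ± 0.092 (95% interval -0.44 to -0.01). Mybbp1a had 4.50 and 4.38 in tumour-bearing hosts against 4.66 and 4.66 in tumour-free hosts, a difference of -0.22 ± 0.090. In both genes the groups did not overlap, as in 35 of the 39 genes (background 34.4%). The median was -0.13, beside -0.057 over all genes, of which 61.7% had a change below 0. Their own median was 2.56 and 2.52 on the tumour-bearing arrays and 2.66 and 2.69 on the tumour-free arrays. The median of all genes was 0.15 and 0.14 on the tumour-bearing arrays and 0.12 and 0.13 on the tumour-free arrays. The 39 genes share their arrays, so a shift of an array as a whole moves them together, and their own medians cannot show it. The part of such a shift in the result was not tested. The count below 0 was 36 after quantile normalization (median -0.066) or with the mean of a gene's probes, and 37 without replicate 6. Less bright probes of the same genes were not all below 0. Of 29 on curated RefSeq transcripts 26 were below 0 and 3 above (median -0.10). All 6 on other transcripts were above 0 (median 0.16).

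Some other gene lists had the same direction in that comparison and others did not. The 78 tested ribosomal protein genes all had a change below 0, with a median of -0.13, and so did 43 of 43 other genes of large-subunit processing (median -0.14) and 13 of 13 T cell markers (median -0.14). Of 42 other genes of small-subunit processing 38 were below 0 (median -0.13). All 35 cell cycle genes were below 0 too, with a median of -0.23, farther from 0 than that of the genes described here. Below 0 were also 32 of 35 other Myc targets and 10 of 11 other RNA polymerase I genes (both medians -0.13). The same held for 17 of 20 nucleotide synthesis genes and 9 of 11 genes of the Myc network (medians -0.087 and -0.093). After quantile normalization 60 of the 78 ribosomal protein genes were below 0, with a median of -0.018. Changes were above 0 for 13 of 19 erythroid, 7 of 9 plasma cell, 7 of 13 B cell, 6 of 12 NK cell and 5 of 9 endothelial markers. They were below 0 for 12 of 16 neutrophil markers (median -0.24) and 8 of 14 macrophage and monocyte markers (median -0.18).

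The host-by-antibody interaction passed the test for 0 of the 39 genes, where 0.0418% of all genes did, and 2 had an unadjusted p under 0.05 (5.13%, against 25.1% of all genes). These were Noc4l and Nhp2, given above. The median was -0.15, beside -0.093 over all genes, and 35 of 39 were below 0, as were 60.9% over all genes. Without replicate 4 the median was -0.079 with 27 below 0, and without replicate 2 it was -0.092 with 32 below 0. With the mean of a gene's probes it was -0.097 with 29 below 0. After quantile normalization it was -0.017 with 24 below 0, and then lay above the median of all genes, -0.044. Intervals were wider here, with a median half-width of 0.29 against 0.20 in the other comparisons.

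Over the 8 arrays as a whole, the range from the lowest to the highest array had a median of 0.28 over the 39 genes, beside 0.47 over all genes, and ran from 0.17 (Polr1e) to 0.62 (Myc). The median over all genes was again not matched for probe brightness. The lowest value was on replicate 8 for 16 genes and on replicate 3 for 11, and the highest on replicate 6 for 15 and on replicate 4 for 12.

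Probes of the same gene did not always agree. Of the 39 tested genes, 20 had several kept probes, with 35 probes besides the brightest. Of these, 29 were designed on a curated RefSeq transcript (an accession that starts with NM) and had a median change of -0.041 in tumour-bearing against tumour-free hosts under control antibody. The 6 probes left, on an Ensembl or GenBank transcript of Nop56, Nop58, Polr1a, Noc2l, Rrp1b and Wdr12, all had a change below 0, with a median of -0.62 and a range of -0.91 to -0.08. None of the 35 passed the test with p-values adjusted over all kept probes. These 6 probes were singled out after their values were seen. The brightest probe of Wdr12 was also designed on a GenBank transcript and is not among them; its change was 0.064, above 0. For Nop56 and Nop58 a probe of each kind is shown: the RefSeq probes span a junction (Nop56 at chr2:130102854-130103256, plus strand; Nop58 at chr1:59752924-59755206, plus strand), while the others lie in one block (Nop56 at chr2:130104489-130104548, plus strand; Nop58 at chr1:59749391-59749450, plus strand; mm9).
Nop56, RefSeq transcript: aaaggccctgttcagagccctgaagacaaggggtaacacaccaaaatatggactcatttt
Nop56, Ensembl transcript: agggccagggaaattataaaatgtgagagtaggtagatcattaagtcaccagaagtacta
Nop58, RefSeq transcript: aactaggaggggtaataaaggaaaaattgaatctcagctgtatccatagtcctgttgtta
Nop58, Ensembl transcript: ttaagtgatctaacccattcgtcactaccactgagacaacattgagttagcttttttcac
The Ensembl probe of Nop56 had -1.21 and -0.85 in tumour-bearing hosts and -0.45 and -0.15 in tumour-free hosts under control antibody, a change of -0.73 ± 0.217 (p adjusted over probes = 0.091). Its RefSeq probe had 1.73 and 1.86 in tumour-bearing hosts and 1.95 and 1.89 in tumour-free hosts, a change of -0.12. The Ensembl probe of Nop58 had -2.62 and -2.93 in tumour-bearing hosts and -2.00 and -1.73 in tumour-free hosts, a change of -0.91 ± 0.280 (p adjusted over probes = 0.0998), and its RefSeq probe gave -0.03.

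**Figure D3:**
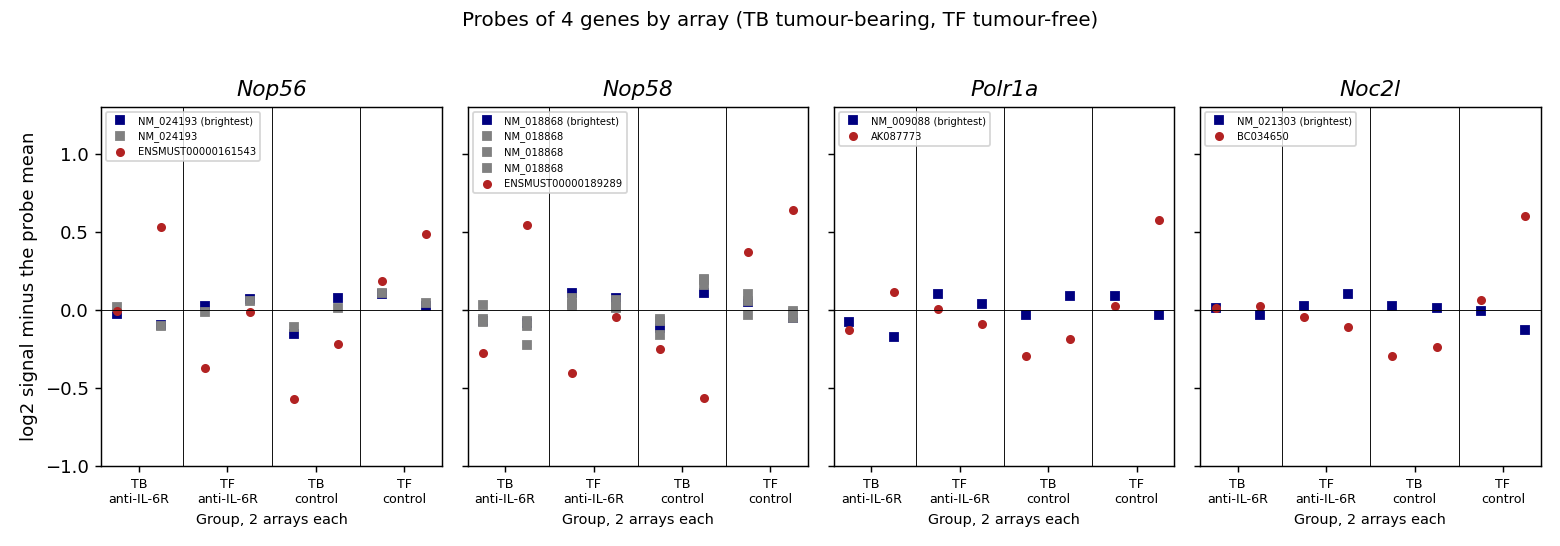
Points are the log2 signals of every kept probe of 4 genes on the 8 arrays, 2 in each group, minus the probe's own mean; squares are probes on RefSeq NM transcripts (dark for the brightest) and red circles those on other transcripts. Red circles spread more widely than squares and are highest on the second tumour-free array with control antibody for Nop58, Polr1a and Noc2l.

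Related genes that are not among the 40 give the context. Under control antibody, 0 of 78 ribosomal protein genes, 0 of 42 other small-subunit genes, 0 of 43 other large-subunit genes and 0 of 11 other RNA polymerase I genes passed the test in tumour-bearing against tumour-free hosts. With anti-IL-6R in tumour-bearing hosts 1 gene of these lists did, where 2.04% of all genes rose and 3.82% fell. This was Polr1d, a subunit that RNA polymerase I shares with polymerase III. It fell by 0.42 ± 0.091 (adjusted p = 0.040), with 3.82 and 3.68 under anti-IL-6R against 4.12 and 4.23 under control antibody, and was no longer past the threshold once replicate 1, 2, 3, 4 or 8 was left out (adjusted p up to 0.245), or under 4 of 11 other settings. Of 20 genes of nucleotide synthesis, which supplies the building blocks of ribosomal RNA, 1 rose with the tumour, Adssl1 of the adenine branch, by 0.51 ± 0.107 (adjusted p = 0.034, and up to 0.147 without replicate 1, 2, 3, 4 or 7). That call was also lost under 3 of 11 other settings. The share of the 20 genes that rose was near that over all genes, 4.27%.

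Of 35 other genes listed as Myc targets, 2 rose in tumour-bearing against tumour-free hosts under control antibody (median 0.14), a share near the 4.27% of all genes that rose there. Odc1, the first enzyme of polyamine synthesis, had 3.10 and 3.21 in tumour-bearing hosts against 2.51 and 2.58 in tumour-free hosts, a change of 0.61 ± 0.078 (adjusted p = 0.006). Tfrc, the transferrin receptor, had 0.94 and 0.67 in tumour-bearing hosts against 0.19 and 0.12 in tumour-free hosts, a change of 0.65 ± 0.110 (adjusted p = 0.016). The groups did not overlap in either gene. The call of Odc1 held without any 1 array (adjusted p = 0.0096 to 0.032) and under 11 other settings, and that of Tfrc was lost without replicate 2 or 3 (adjusted p up to 0.102) and under 1 of the 11. With anti-IL-6R in tumour-bearing hosts 4 of the 35 fell (median -0.12), where 3.82% of all genes did, among them Odc1 by 0.42 ± 0.078, Tfrc by 0.57 ± 0.110 and the translation factor gene Eif5a by 0.31 ± 0.072 (adjusted p = 0.030, 0.031 and 0.045). Without any 1 array, 0 to 2 of the 35 fell: Odc1 dropped out without replicate 3, 4, 7 or 8, Tfrc without 3, 7 or 8 and Eif5a without any 1 array except 7, with adjusted p-values up to 0.152, 0.162 and 0.256. With all 8 arrays kept, 0 of the 35 fell with no filter on dim probes or with no intensity trend. With only the groups compared, a fit that fewer arrays entered, 0 of the 35 fell too. Of 11 other settings 4 ended the call of Odc1, 3 that of Tfrc and 4 that of Eif5a. Erythroid precursors also express Tfrc at a high level. Of 11 genes of the Myc network, Mxd3, a member of the Mad family that pairs with Max, rose by 0.78 ± 0.152 with the tumour (adjusted p = 0.026) and fell by 1.15 ± 0.152 with anti-IL-6R in tumour-bearing hosts (adjusted p = 0.024), with -1.79 and -2.02 under anti-IL-6R against -0.65 and -0.85 under control antibody. The first call was lost without replicate 1, 2 or 3 and the second without 3 or 8 (adjusted p up to 0.154 and 0.123), and each was lost under 1 of 11 other settings.

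Cell cycle genes were set beside the 39 genes as a list of dividing cells. Of 35, 12 rose in tumour-bearing against tumour-free hosts under control antibody (median 0.53), and 27 fell with anti-IL-6R in tumour-bearing hosts (median -0.77). Mki67, the proliferation marker, had 3.60 and 3.42 in tumour-bearing hosts with anti-IL-6R, 4.66 and 4.26 in tumour-bearing hosts with control antibody, and 3.67 and 3.70 in tumour-free hosts with control antibody. Both counts depended on single arrays and on the fit. The first was 0 without replicate 2 or 3, 1 without replicate 1, 5 without replicate 4, 8 without replicate 7 or 8 (also after quantile normalization) and 20 without replicate 5 or 6. It was 1 with no intensity trend, 2 with no filter on dim probes, 3 with array weights and 19 with only the groups compared. The second was 0 without replicate 3 or 8, 7 without replicate 4, 0 with no filter and 1 with no trend. Without any 1 array the medians stayed between 0.41 and 0.63 and between -0.87 and -0.65. The difference between the lists was not tested.

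**Figure D4:**
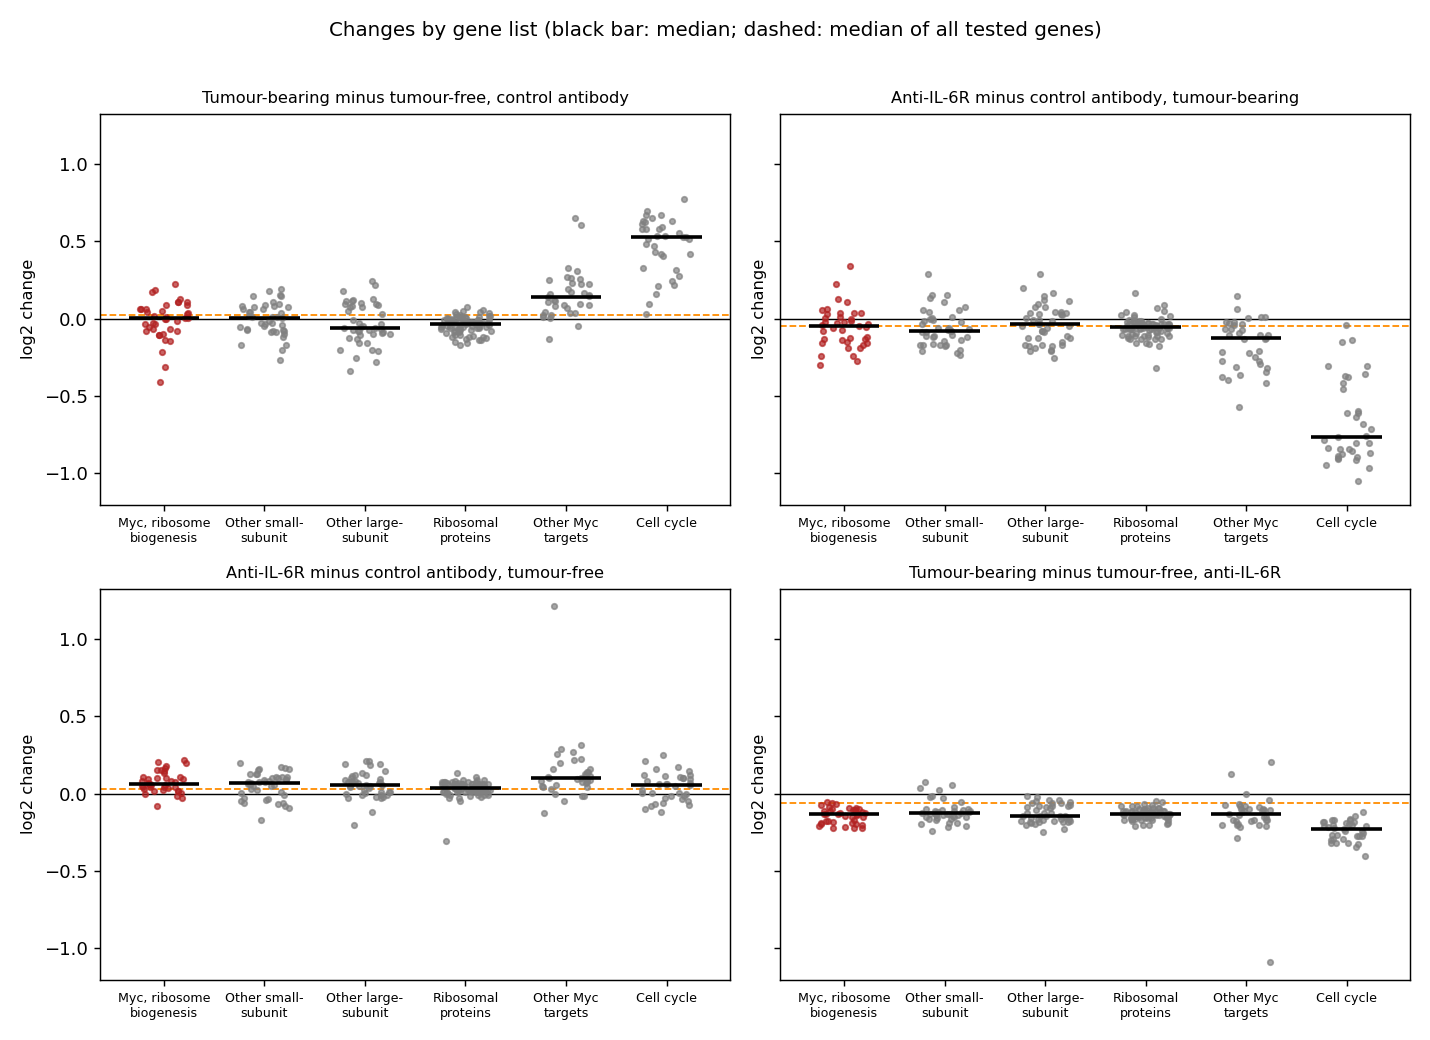
Each point is the log2 change of a gene in 1 of 4 comparisons (panels) for the genes described here (red) and 5 other lists (grey); black bars are list medians and the dashed line is the median of all tested genes. Medians of the red points are 0.00035, -0.047, 0.062 and -0.13, while those of cell cycle genes are 0.53 and -0.77 in the upper panels.

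Markers of other cells moved in both comparisons that gave the calls named above. In tumour-bearing against tumour-free hosts under control antibody, 6 of 16 neutrophil markers and 12 of 19 erythroid markers rose (medians 1.65 and 1.97), and 7 of 13 B cell markers fell (median -0.84). Of the other lists, 5 of 9 plasma cell markers rose (median 1.22), and 4 of 12 NK cell markers fell and 1 rose (median -0.42). T cell markers had a change above 0 for 10 of 13 (median 0.18), and 1 rose. Macrophage and monocyte markers had a change below 0 for 10 of 14 (median -0.45), and 1 rose. For endothelial markers it was below 0 for 7 of 9 (median -0.28), and 1 fell. The summed level of the neutrophil markers, as multiples of the array's 75th percentile, was 220 to 224 in tumour-bearing hosts and 149 to 189 in tumour-free hosts. That of the erythroid markers was 556 to 823 in tumour-bearing hosts and 247 to 429 in tumour-free hosts, and that of the B cell markers was 28.6 to 39.9 in tumour-bearing hosts and 50.3 to 65.8 in tumour-free hosts. Without any 1 array the neutrophil, erythroid and B cell counts were 5 to 10, 7 to 14 and 0 to 8, and 2 to 5 plasma cell markers rose and 3 to 4 NK cell markers fell. No neutrophil or B cell marker was at background on all arrays, and the erythroid marker Epb42 had no probe.

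With anti-IL-6R against control antibody in tumour-bearing hosts, the comparison that holds the calls of Polr1d, Eif5a and most of the cell cycle genes, 6 of 16 neutrophil markers and 9 of 19 erythroid markers fell (medians -1.68 and -1.24). In the same comparison 5 of 13 B cell markers, 5 of 12 NK cell markers and 3 of 9 endothelial markers rose (medians 0.72, 0.54 and 0.84). Macrophage and monocyte markers had a change above 0 for 13 of 14 (median 0.56), and 1 rose. Plasma cell markers had a change below 0 for 8 of 9 (median -0.43), and 1 fell. For T cell markers it was below 0 for 12 of 13 (median -0.24), and 0 passed the test. The summed level of the erythroid markers was 550 to 666 with anti-IL-6R and 556 to 823 with control antibody, which overlapped. That of the neutrophil markers was 166 on both anti-IL-6R arrays and 220 to 224 on the control-antibody arrays, and that of the B cell markers was 52.6 to 56.2 with anti-IL-6R and 28.6 to 39.9 with control antibody. Without any 1 array, 4 to 10 neutrophil and 0 to 11 erythroid markers fell, and 0 to 5 B cell, 0 to 5 NK cell and 0 to 4 endothelial markers rose. The part of these cells in the changes of Nop14, the Myc targets and the cell cycle genes, or in the small changes of the genes described here, was not tested, and in bulk samples fewer cells of a type and less RNA per cell cannot be told apart.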

How the data were processed

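CD4+ T cells were profiled on 8 one-colour Agilent arrays, 1 per sample, in 4 groups of 2. The deposited scanner files hold intensity values, read by the authors with Agilent's Feature Extraction software, version 10.10.1.1, as the submitters' processing notes state. The deposited value table holds log2 values that equalled the recomputed ones up to an offset (r = 1), and it served as an alternative. Probe positions are on mm9 (NCBI37), per the file headers.

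Outlier spots were dropped (60 to 95 per array), spots of a probe were averaged, and the log2 of the processed signal was taken minus the array's 75th percentile (a signal of 500 to 527 before scaling). Of 56587 probes, 32039 were kept, being called well above background on both arrays of some group. The brightest kept probe stood for each of 21537 genes, named as in the file. Limma 3.58.1 (R 4.3.3) fitted 4 group means with an intensity trend in the variance, which gave 4 residual and 4.16 prior degrees of freedom. Tests were two-sided with a threshold of 0.05 on p-values adjusted over all genes by the Benjamini-Hochberg method, and 95% intervals used 8.16 degrees of freedom. The fit was tested on simulated data. Promoters came from RefSeq.

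The 40 genes, their roles and the other lists were chosen with earlier results of these data known. All 40 were described, and of other lists up to 4 genes with the smallest p. The alternatives were 3 other scalings or backgrounds, the deposited table, other filters, probes, names, weights and samples, and leaving out each array. The fit of every kept probe as its own feature was added after seeing the data. The purity of the isolates, antibody doses and mice per sample were not stated in the labels.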

Additional observations from a re-analysis of the deposited data

How the results depend on the processing

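The test was repeated under 19 alternatives, 8 of which left out 1 array. The count of genes that rose was 0 in all 5 comparisons under each alternative run, and the count that fell was 0 in the 4 comparisons where it was 0 before; the fit of only the groups compared was not run for the interaction. In tumour-bearing against tumour-free hosts under control antibody, the count that fell (Nop14) was 0 with array median scaling, array weights, no filter on dim probes, no intensity trend or only the 2 groups compared, and 0 to 0 without each array. The adjusted p of Nop14 was then 0.24, 0.069, 0.079, 0.070 and 0.089. The cause of these losses was not tested, except that fewer arrays entered the last fit and those without an array.

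The median change of the genes was 0.084 in that comparison with array median scaling and -0.060 to 0.075 without 1 array. With anti-IL-6R against control antibody in tumour-bearing hosts it was -0.21 with array median scaling, 0.032 with quantile normalization and -0.14 to 0.0041 without 1 array. With anti-IL-6R in tumour-free hosts it was 0.015 to 0.14 without 1 array. In tumour-bearing against tumour-free hosts under anti-IL-6R it was -0.24 with array median scaling, -0.066 with quantile normalization and -0.16 to -0.12 without 1 array. The difference between the antibody effects had a median of -0.34 with array median scaling, -0.097 with the mean of all kept probes, -0.017 with quantile normalization and -0.21 to -0.079 without 1 array. Array median scaling also moved the median of all genes, to -0.21 from -0.051 for anti-IL-6R in tumour-bearing hosts, and left the distance between both medians as it was (0.0037).

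The counts over all genes that serve as background moved more. In tumour-bearing against tumour-free hosts under control antibody it was 1346, against 766 with array weights, 570 without the filter, 623 without the trend and 285 without replicate 2. With anti-IL-6R in tumour-bearing hosts it was 1262, against 2340 with array median scaling, 25 without the filter, 87 without the trend and 19 without replicate 8. No paired analysis was possible because the replicate numbers run through the groups and no group shares one. The 39 tested genes were well above background on all 8 arrays.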

Other observations

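The 6 probes on transcripts other than RefSeq NM ones that were not the brightest of their gene are given here by array; the brightest Wdr12 probe, also on such a transcript, is left out. Relative to each probe's own mean, the median of the 6 probes was -0.076 and 0.17 on the tumour-bearing arrays with anti-IL-6R, -0.022 and -0.10 on the tumour-free arrays with anti-IL-6R, -0.30 and -0.20 on the tumour-bearing arrays with control antibody, and 0.042 and 0.59 on the tumour-free arrays with control antibody. Replicate 2, of the tumour-free control group, was the highest. Such probes were also taken over all genes whose brightest probe was on an NM transcript, 3098 probes, which leaves out Wdr12. Their medians were -0.024 and 0.056 on the tumour-bearing arrays with anti-IL-6R and 0.0021 and -0.042 on the tumour-free ones. With control antibody they were -0.12 and -0.084 on the tumour-bearing arrays and -0.0011 and 0.19 on the tumour-free ones. In tumour-bearing against tumour-free hosts under control antibody, 71% of these 3098 probes had a change below 0 (median -0.20). Of 5835 further probes on NM transcripts, with the same limit on genes, 45.4% did (median 0.024). The median change of the 6 probes was 0.32 with anti-IL-6R in tumour-bearing hosts and -0.38 with anti-IL-6R in tumour-free hosts. It was 0.16 in tumour-bearing against tumour-free hosts under anti-IL-6R, where all 6 were above 0. Which part of the transcripts these probes read was not tested.

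A dim probe of Tsr1 gave -0.80 and -2.52 on the tumour-free arrays with anti-IL-6R and between -3.26 and -2.77 on the other 6 arrays, while the brightest Tsr1 probe had 1.39 and 1.63 on those tumour-free arrays.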
